A study of Drosophila melanogaster with 2 samples.

Results

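The genes described are the large-subunit cytosolic ribosomal protein genes of Drosophila melanogaster, taken as every protein-coding gene of the annotation whose symbol begins with RpL. That rule also takes in relatives named "-like", such as RpL24-like and RpLP0-like, whose yeast counterparts act in subunit assembly. With those included, there were 54 RpL genes among 13945 protein-coding genes on the chromosome arms that the peak lists cover. The measurement was ChIP-seq, which sequences the DNA recovered with a protein, on whole embryos of both sexes aged 0 to 14 h. The embryos came from a transgenic line that stably expresses the protein encoded by CG3407 fused at its C terminus to green fluorescent protein, with 2 biological replicates that form 1 group. The labels contradict each other: a free-text description speaks of input, whereas other fields name a ChIP of CG3407. Both libraries were read as ChIP because the deposited lists were made from them against a separate control file. Untagged flies were not analysed here, nor was that control. The depth behind each score is unknown. Whole embryos pool all cell types, so more cells with a signal and more signal per cell cannot be told apart.

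The large subunit of the cytosolic ribosome joins amino acids into protein, and its proteins surround the large ribosomal RNAs, line the exit tunnel and form the stalk that receives translation factors. Ribosomal protein genes are among the most active genes of a growing embryo. In flies, loss of 1 copy of many of them gives the Minute phenotype of slow development and thin bristles. Many of their promoters start transcription at a pyrimidine-rich initiator named TCT in place of the usual initiator, and the DNA-binding proteins Dref and M1BP are known at a number of them. CG3407 encodes a zinc finger protein.

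Of the 54 RpL genes, 41 (75.9%, 95% Wilson interval 63.1 to 85.4) had a peak summit within 500 bp of a transcription start site (TSS) in the list kept by the irreproducible discovery rate (IDR), against 14.1% of all protein-coding genes. Such intervals cover counting error only, and neighbours with 1 promoter between them share a summit. The IDR list holds the 4089 highest-scoring intervals of the pooled candidate list. A summit is the position of strongest signal in an interval, and the score is the peak caller's own value, whose scale differs between lists. The 3 genes of the ribosomal stalk all had an IDR summit, as did 5 of 10 genes of the paralog class and 33 of the remaining 41. Genes of that class carry "-like" in their symbol or belong to a pair of RpL genes that differ in a final lower-case letter or hyphenated number.

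The sequences below come from the start sites of 6 of the members with the strongest summits, and beside them the promoter of RpL10Aa, which had no candidate in any list. Each runs 5′ to 3′ on the gene's strand from 150 bases before the TSS to 30 bases from it, so that base 151 is the TSS nearest to the summit, or the canonical TSS at RpL10Aa. RpL7 is shown from 29 bases before its TSS, which is base 30 of that stretch. They are the RefSeq copy of the dm6 assembly. Capitals mark matches to the short sequences searched further on. The windows are chr2L:10200975-10201033 (plus strand) for RpL7, chr3L:8600856-8601035 (plus) for RpL14, chr3R:5624324-5624503 (plus) for RpL13A, chr3L:1668625-1668804 (minus) for RpL23A, chr3L:3222931-3223110 (minus) for RpL28, chr2L:19009277-19009456 (minus) for RpL30 and chr3R:15037216-15037395 (plus) for RpL10Aa.
RpL7: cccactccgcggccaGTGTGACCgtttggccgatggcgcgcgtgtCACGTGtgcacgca
RpL14: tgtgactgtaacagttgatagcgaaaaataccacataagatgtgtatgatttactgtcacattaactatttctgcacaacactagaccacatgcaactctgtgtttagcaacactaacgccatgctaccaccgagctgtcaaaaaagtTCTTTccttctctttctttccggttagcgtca
RpL13A: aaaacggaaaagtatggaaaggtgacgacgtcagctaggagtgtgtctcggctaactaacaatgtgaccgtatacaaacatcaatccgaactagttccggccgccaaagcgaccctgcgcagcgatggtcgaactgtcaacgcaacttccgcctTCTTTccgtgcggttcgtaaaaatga
RpL23A: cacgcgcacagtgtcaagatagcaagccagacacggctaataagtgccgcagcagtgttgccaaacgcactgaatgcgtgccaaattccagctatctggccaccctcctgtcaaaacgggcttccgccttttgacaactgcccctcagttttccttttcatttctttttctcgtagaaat
RpL28: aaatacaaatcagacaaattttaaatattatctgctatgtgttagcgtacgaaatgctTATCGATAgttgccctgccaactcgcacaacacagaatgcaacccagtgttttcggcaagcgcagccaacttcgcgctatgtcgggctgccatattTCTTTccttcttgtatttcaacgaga
RpL30: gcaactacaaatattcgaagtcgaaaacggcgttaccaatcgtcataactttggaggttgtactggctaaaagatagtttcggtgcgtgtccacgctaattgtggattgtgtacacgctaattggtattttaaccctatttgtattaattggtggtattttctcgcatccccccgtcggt
RpL10Aa: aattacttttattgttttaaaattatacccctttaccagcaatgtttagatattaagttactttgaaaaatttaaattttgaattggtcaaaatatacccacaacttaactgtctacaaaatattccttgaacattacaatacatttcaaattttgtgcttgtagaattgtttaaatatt

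In RpL7 the capitals mark the core of motif 1, the M1BP element, read on the opposite strand and starting at -14 bases from the TSS, and an E-box starting at 16 bases. The IDR summit of RpL7 lay at 36 bp, just past the end of the stretch shown. RpL14, RpL13A and RpL28 each have a match to the core of the TCT initiator within 10 bases of the TSS shown. It starts at -2 bases in RpL14 and at 4 bases in RpL13A and RpL28. RpL28 also has the DRE, the Dref element, at -92 bases. The summits lay at base 135 of the stretch shown for RpL14, base 99 for RpL13A, base 88 for RpL23A, base 107 for RpL28 and base 170 for RpL30. The stretches of RpL23A, RpL30 and RpL10Aa have no capitals. At RpL30 that holds for the upstream TSS shown, while at its canonical TSS the motif 1 core starts at -42 bases and the TCT core at 3.

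Among the strongest RpL promoters, RpL7 stood first. RpL7, whose protein is a conserved part of the subunit's core, had a score of 1210 and rank 94 in the IDR list, at 2L:10200889-10201183. It scored 551 in replicate 1, where it ranked 81, and 660 in replicate 2, where it ranked 121. No other RpL gene ranked above 200 in the IDR list or in either replicate, so RpL7 was well ahead of the rest of the family in both.

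The next places were close to each other. RpL14 scored 798 in the IDR list, where it ranked 261, with 308 in replicate 1 and 488 in replicate 2. It ranked 319 in replicate 1 and 241 in replicate 2. RpL13A had 759, from 371 in replicate 1 and 389 in replicate 2. RpL23A, whose protein lies at the mouth of the exit tunnel, had 741, from 378 and 369. RpL28 had 702, from 320 and 390. Each of these genes ranked 435 or better in both replicates.

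RpL41, which encodes the smallest protein of the ribosome, scored 676, with 313 in replicate 1 and 362 in replicate 2. RpL30 scored 654, with 263 and 380. RpL24 scored 653, with 326 and 325. These scores fall within a narrow band, and the order of neighbours in it changed from one replicate to the other. RpL34b, of the pair RpL34a and RpL34b, scored 651, with 314 and 335. RpL19, a Minute gene, scored 603, with 289 and 320.

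The next 6 members given here were RpL13, RpL17, RpL4, RpL22, RpL11 and RpL32. RpL17, a tunnel protein, scored 572 (rank 514), with 250 in replicate 1 and 331 in replicate 2. RpL4, which also lines the tunnel, scored 510 (rank 630), with 258 and 244. RpL11, whose protein joins the ribosome with RpL5 and the 5S RNA, scored 497 (rank 671), with 172 and 331. RpL11 ranked 951 in replicate 1 and 521 in replicate 2, and RpL4 the other way, 451 and 949. RpL13 scored 577 (rank 508), with 198 in replicate 1 and 378 in replicate 2. RpL22 scored 509 (rank 638), with 213 and 300.0. RpL32, long used as a reference gene for measuring expression, scored 454 (rank 804), with 221 and 231. All 6 ranked 1040 or better in both replicates.

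The stalk genes spanned much of the range. RpLP0, whose protein anchors the stalk, scored 780 in the IDR list (rank 274), 340 in replicate 1 and 426 in replicate 2. RpLP1 scored 377 (rank 1115), with 161 in replicate 1 and 215 in replicate 2. RpLP2 scored 276 (rank 1881), with 126 and 157. The order of the 3 genes, RpLP0 above RpLP1 above RpLP2, was the same in each replicate.

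RpL3, RpL8 and RpL12 stood lower in the list. RpL3, whose protein reaches towards the peptidyl transferase centre, scored 378 (rank 1106), with 138 in replicate 1 and 229 in replicate 2. RpL8, a neighbour of that centre, scored 357 (rank 1221), with 161 and 196. RpL12, at the base of the stalk, scored 216 (rank 2725), with 95.6 and 129. RpL3 and RpL8 changed places between the replicates, RpL8 ranking 1060 and RpL3 1389 in replicate 1 against 1394 and 1056 in replicate 2, while RpL12 was the lowest of the 3 in both.

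RpL27A (450), RpL31 (409), RpL27 (385), RpL35A (354), RpL37A (348) and RpL23 (340) had IDR scores between those of the leading genes and the lower ones. The lower ones were RpL26 (306), RpL18 (305), RpL36 (293), RpL39 (285), RpL7A (227), RpL36A (218) and RpL38 (208). RpL31 and RpL39 proteins lie at the tunnel. RpL39 scored 135 in replicate 1 and 152 in replicate 2. RpL38, known in the mouse for its part in translating Hox messages, scored 109 and 120. Scores ran down to 167 at RpL29, rank 3918, the member nearest to the lower end of the list. RpL29 ranked 3154 in replicate 1 and 5070 in replicate 2. Just below the end of the IDR list came RpL10, at pooled rank 4356. The members' median rank was 1069, against 1733 for all 1964 protein-coding genes with an IDR summit. Of the 41 members, 12 (29.3%) were among the 500 highest IDR intervals, against 15.8% of all genes with a summit. By chromosome arm, members with an IDR summit were 8 of 13 on 2L, 12 of 14 on 2R, 8 of 10 on 3L, 8 of 11 on 3R and 5 of 6 on X. The shares of all protein-coding genes by arm were not counted, so no difference between arms can be read from these counts.

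**Figure D1:**
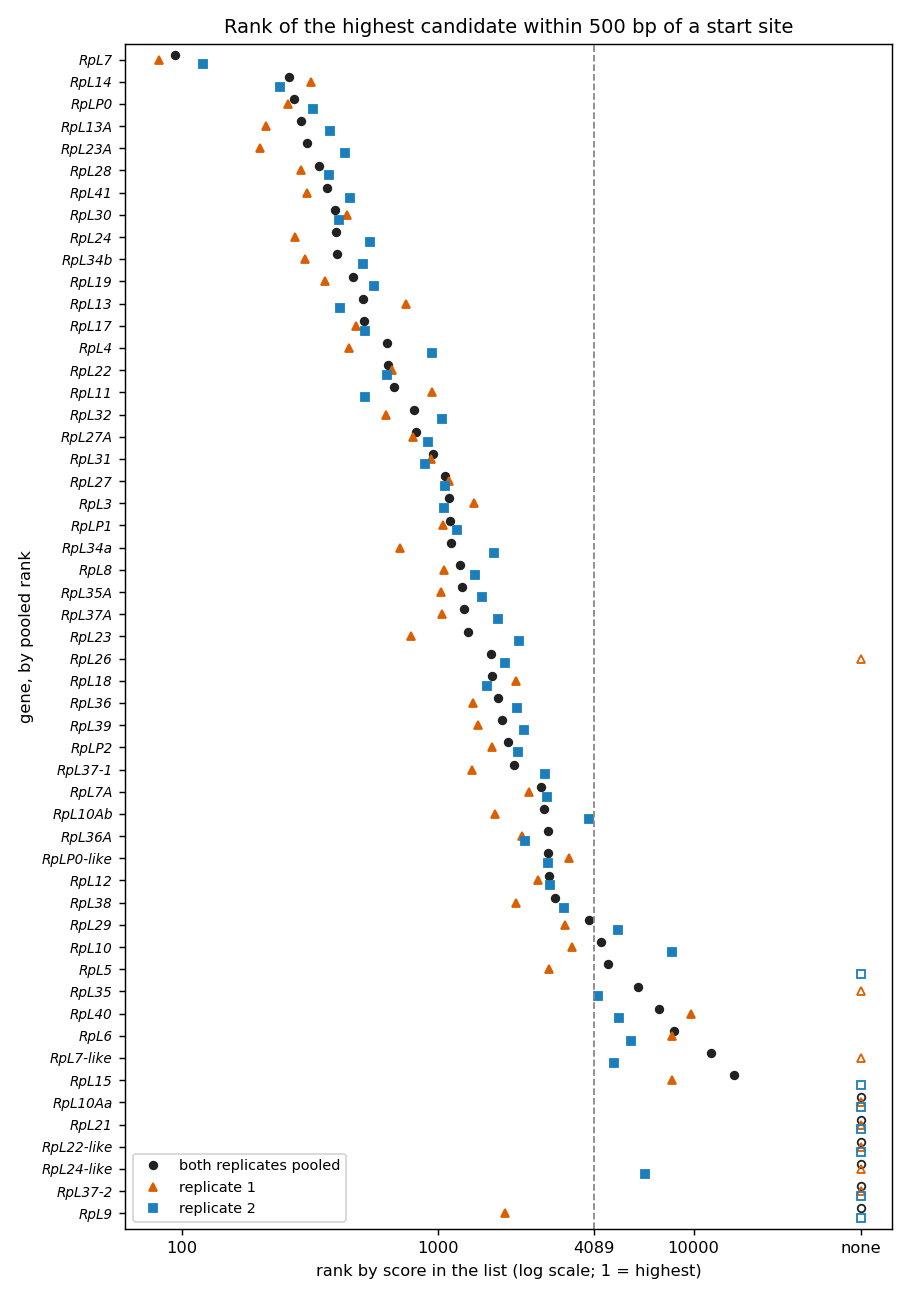
Rank by score (log axis, 1 is the highest) of the highest candidate within 500 bp of a TSS for each RpL gene described, in the pooled list and in replicates 1 and 2, with open symbols at "none" where a list had no candidate there and a dashed line at the end of the IDR list, 4089. RpL7 leads at rank 94, the genes with an IDR summit lie left of the line in the pooled list, and RpL10Aa, RpL21, RpL22-like and RpL37-2 have only open symbols.

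Both replicates gave nearly the same genes. Among as many of its highest candidates as the IDR list holds, replicate 1 had a summit at 43 RpL genes, against 14.1% of all protein-coding genes. Replicate 2 had one at 40, again against 14.1%. Both had one at 39 (72.2%, Wilson interval 59.1 to 82.4), against 10.6%. All 39 also had an IDR summit. Each replicate's full list of 30000 intervals mixes peaks with background, and there 46 members had a candidate in replicate 1 (36.1% of all genes), 47 in replicate 2 (47.2% of all genes) and 48 in the pooled list (41.6% of all genes). Across the 43 members with a candidate in both replicates, Spearman's rho of the ranks was 0.917, a description over genes of the same 2 libraries.

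Among members with a candidate in both replicates, the ratio of the 2 ranks was largest at RpL23, RpL10 and RpL10Ab. RpL23 ranked 782 in replicate 1 and 2081 in replicate 2. RpL10, whose protein is added late in subunit assembly, ranked 3359 and 8233. RpL10Ab ranked 1669 and 3887. In all 3 the place in replicate 1 was the higher, as it was at 31 of the 43 members with a candidate in both. RpL26 was the only member with an IDR summit (score 306, rank 1618) and no candidate near it in replicate 1, where the nearest one lay 2248 bp from its TSS. In replicate 2 it ranked 1826.

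The 13 RpL genes without an IDR summit were of 3 kinds. The first 7 had a candidate in the pooled list below the IDR part. RpL10 had a pooled score of 156, with 77.5 in replicate 1 and 62.3 in replicate 2. RpL40, which encodes ubiquitin fused to a ribosomal protein, had a pooled score of 106 (rank 7324), with 37.8 and 86.3. RpL6 had 95.9 (rank 8413), with 41.9 and 79.8. These 3 had a candidate in both replicates, and at each it ranked outside the 4089 highest in replicate 2.

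The other 4 of that kind had a candidate in 1 replicate alone. RpL5, the partner of RpL11 and the 5S ribosomal RNA, had a pooled score of 149 (rank 4621) and 89.2 in replicate 1 (rank 2718), and no candidate in replicate 2. RpL15 had a pooled score of 65.8 (rank 14408) and 41.9 in replicate 1, and none in replicate 2. RpL35, whose protein lies at the tunnel exit, had a pooled score of 122 (rank 6088) and 97.6 in replicate 2, and none in replicate 1. RpL7-like, a relative of RpL7, had a pooled score of 75.6 (rank 11739) and 89.1 in replicate 2, 322 bp upstream of its TSS, and none in replicate 1. RpL5 and RpL15 lie near the centromeres of 2L and 3L, where replicate 2 listed fewer candidates. Within 1 Mb of RpL5 there were 240 candidates in replicate 1 and 88 in replicate 2, and within 1 Mb of RpL15 there were 27 and 0. For scale, there were 440 and 393 around RpL9, elsewhere on 2L, and 292 and 190 around RpL10, on 3L. RpL38, with 103 candidates within 1 Mb in replicate 1 and 5 in replicate 2, did have an IDR summit (score 208, rank 2867). The part of that local difference in these results was not tested.

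RpL9 and RpL24-like had a candidate in 1 replicate and none in the pooled list. RpL9 scored 116 in replicate 1 (rank 1836), 11 bp past its TSS, but had no candidate within 500 bp in replicate 2 or in the pooled list, whose nearest lay 659 bp away. RpL24-like, whose yeast counterpart acts in subunit assembly, scored 73.7 in replicate 2 (rank 6479). The last 4, RpL10Aa, RpL21, RpL22-like and RpL37-2, had no candidate within 500 bp in any list. The nearest pooled candidate was 6542 bp from a TSS of RpL10Aa, 71676 bp from RpL21, 5268 bp from RpL22-like and 3269 bp from RpL37-2. Of these genes RpL21 alone has no paralog in the family. It lies in the same low region of 2L, with 274 candidates within 1 Mb in replicate 1 and 119 in replicate 2.

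Paralogs differed within pairs. RpL10Ab had an IDR summit (score 223, rank 2603), with 124 in replicate 1 and 104 in replicate 2, while RpL10Aa had no candidate. RpL37-1 had one (score 267, rank 1985), with 140 and 133, while RpL37-2 had none. In the third pair both copies had one, with RpL34b at 651 and RpL34a at 375 (rank 1129), the second from 203 in replicate 1 and 179 in replicate 2. RpL22 scored 509 and RpL24 scored 653, while RpL22-like, which is enriched in the fly testis, and RpL24-like had no IDR summit, nor had RpL7-like beside RpL7. RpLP0-like, whose yeast counterpart Mrt4 acts in assembly, had a score of 217 (rank 2697), with 79.5 in replicate 1 and 130 in replicate 2. That summit was nearer to a TSS of 14-3-3zeta, which starts on the opposite strand. How uniquely reads could be placed in each copy was not tested.

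Summits at RpL genes lay close to a TSS, most of them just upstream of it. The median position of the highest IDR summit was -29 bp from the gene's nearest TSS (negative is upstream), with quartiles of -47 and -7 bp, against a median of -143 bp and quartiles of -232 and -57 bp for all 1964 protein-coding genes with one. Of the 41 members, 39 (95.1%) had it within 100 bp of a TSS, against 28.3% of all genes with a summit. The median was -37 bp in replicate 1 and -17.5 bp in replicate 2 (SD of the 2 medians 13.8 bp, n = 2), against -154 and -134 bp for all genes. The gap between RpL genes and all genes was larger than the difference between the replicates. That difference describes the 2 libraries and not the spread between genes. The gap was not given a test, since the genes share the same 2 libraries.

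**Figure D2:**
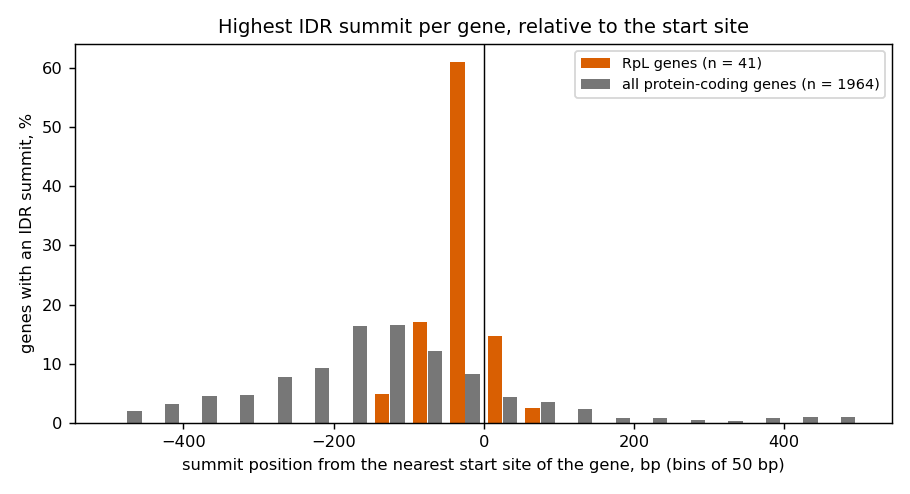
Share of genes with an IDR summit (vertical axis, %) by the position of the highest summit relative to the gene's nearest TSS, in bins of 50 bp, for 41 RpL genes and for all 1964 protein-coding genes with one, RpL genes included. The bin just upstream of the TSS holds 61.0% of the RpL genes, while the bars of all genes peak further upstream.

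The pattern held on both sides of a split by neighbouring genes. A promoter was called divergent when another protein-coding gene started within 1000 bp upstream on the opposite strand. Among RpL genes 34 of 54 (63.0%) were divergent, against 36.2% of all protein-coding genes. Divergent members had an IDR summit in 82.4% of cases and the others in 65.0%, against 23.6% and 8.67% among all genes. The median position was -30.5 bp at divergent members and -15 bp at the others, against -139 and -154 bp among all genes. At 21 of the 41 members the summit was also within 500 bp of another protein-coding TSS, so it cannot be credited to the RpL gene alone. At the other 20 the median position was -16.5 bp and the median rank 1254.5, against -38 bp and 630 at the 21 with such a neighbour.

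The genes opposite RpL promoters were of many kinds, and a few are given as examples, chosen after they were seen. RpL13 and Dref, which encodes the DRE-binding factor, start on opposite strands and share 1 IDR summit with a score of 577 at rank 508, 6 bp upstream of RpL13. RpL28 lies opposite eIF1, a translation initiation factor gene, and RpL36 opposite Mybbp1A. RpL7 lies opposite Ripalpha and RpL14 opposite Nelf-E, which encodes a subunit of the negative elongation factor.

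Positions agreed closely between replicates at most members. Among the 40 members with an IDR summit and a candidate in both replicates, the 2 replicate summits were a median of 21 bp apart and at most 157 bp apart, and 31 were within 50 bp. RpL24 had its summit at -14 bp in both, and RpL32 at -69 bp in replicate 1 and -68 bp in replicate 2. The widest gap was at RpL36A, which has 2 TSSs, with the summit 8 bp past one of them in replicate 1 and 115 bp past the other in replicate 2. At 27 of the 40 the summit was upstream in both. RpL26 lay furthest downstream in the IDR list, at 88 bp. In the pooled list 94.9% of summits are the centre of their interval. Of the members' 41 IDR summits 15 are the centre. Whether the summit or the interval was set first there is not known.

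**Figure D3:**
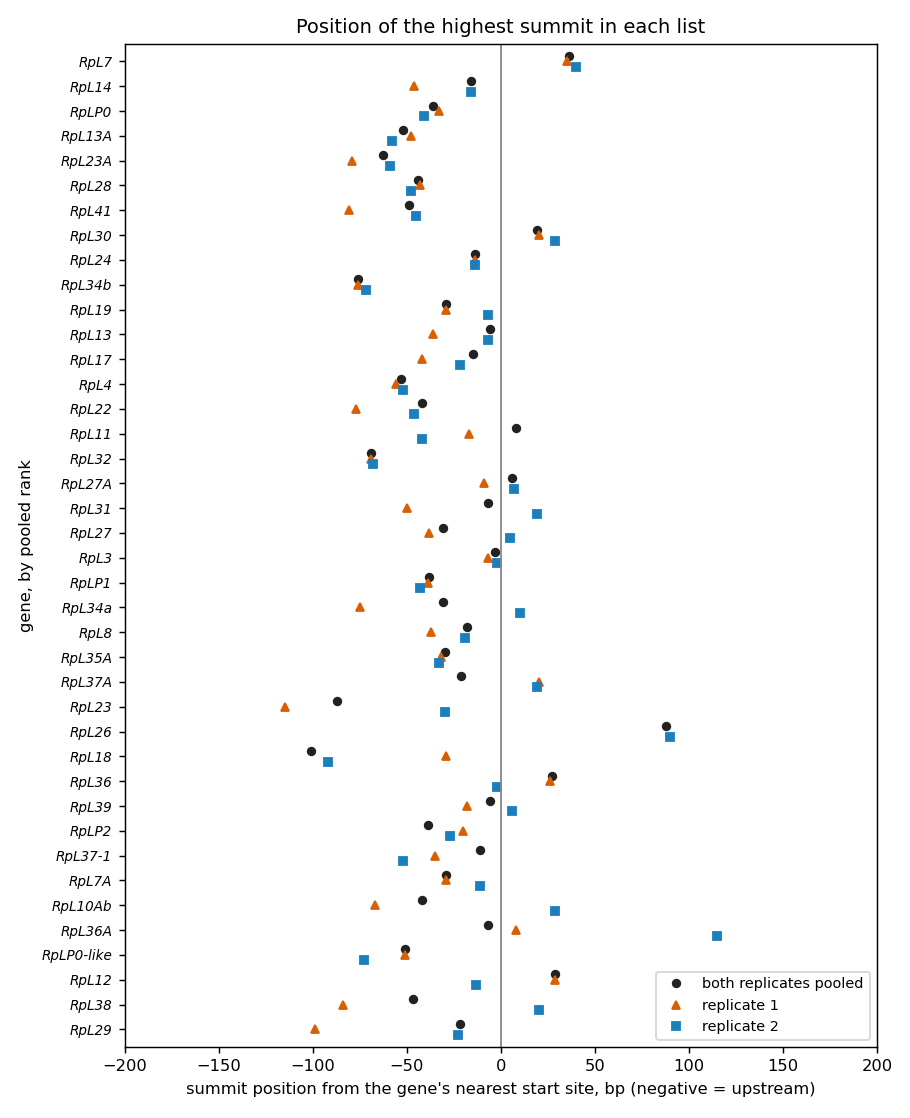
Position of the highest summit relative to the gene's nearest TSS (horizontal axis, bp, negative is upstream) for the RpL genes described that have an IDR summit, in the pooled list and in replicates 1 and 2, ordered by pooled rank. Most symbols lie between -100 and 50 bp; RpL23 reaches furthest upstream and RpL26 and RpL36A furthest downstream.

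Relative to the gene, 30 of the 41 summits were upstream of its outermost start, 7 were in the 5' UTR of the canonical transcript, and 4 were inside the gene but outside that transcript. None was in a coding exon or an intron of it. A second IDR summit was present at RpL27A, RpL28, RpL18, RpL34b and RpL32. All 5 second summits lay upstream, from -312 bp at RpL18 to -231 bp at RpL27A, with scores from 165 to 245, each below the score of the first. Their intervals overlap that of the first summit, and at RpL34b the bounds are the same. Whether they are separate peaks cannot be told from the list. RpL28, RpL18, RpL34b and RpL32 also have a divergent gene upstream. Small nucleolar RNA genes, which guide the modification of ribosomal RNA, lay inside 16 RpL genes on the same strand, 33 in all. An IDR summit was at 14 of those 16 hosts and at 27 of the 38 other RpL genes, against 40 of the 84 protein-coding genes that hold such a gene (47.6%), RpL genes included.

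Short promoter sequences were counted from 250 bases before to 50 bases from the canonical TSS of the 54 members and of 13944 protein-coding genes. The DRE, TATCGATA on both strands, was in 15 RpL promoters (27.8%), against 8.94% of all. The motif 1 core, GGTCACAC on both strands, was in 9 (16.7%), against 7.54%. The E-box CACGTG, a site of Myc and related factors that reads the same on both strands, was in 11 (20.4%), against 4.26%. GAGAG on both strands was in 12 (22.2%), against 30.2%, and TATAAA on the sense strand in 17 (31.5%), against 32.2%. TATTTAC, a sequence taken from earlier results on these summits, was in 8 (14.8%) on either strand, against 9.72%. TCTTT on the sense strand within 10 bases of the TSS, the core of the TCT initiator, was in 23 (42.6%), against 2.35%. No sequence searched contains the letters of another, and a match is a description and not a site. Median GC content of the window was 36.5% in RpL genes and 38.0% in all genes.

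**Figure D4:**
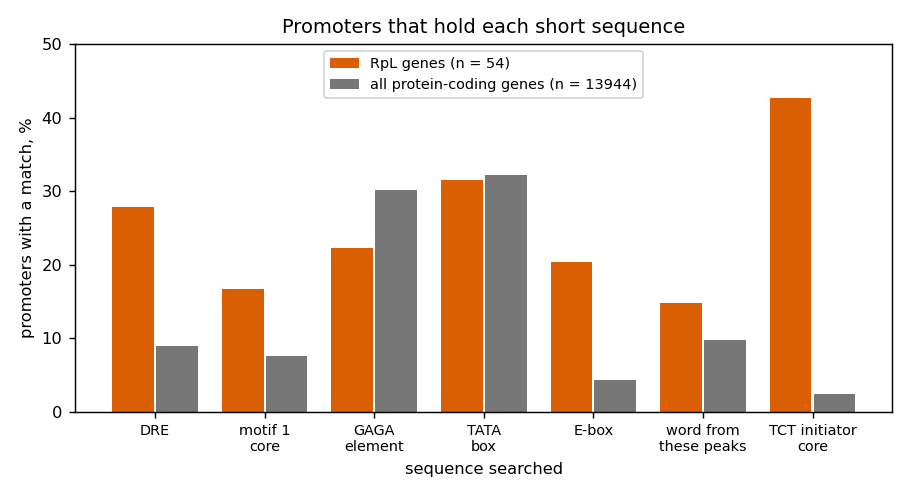
Share of promoters (%) with a match to each short sequence, for the 54 RpL genes and for 13944 protein-coding genes, RpL genes included. The word from these peaks is TATTTAC. The TCT core is in 42.6% of RpL promoters and 2.35% of all, and the DRE and the E-box are also more frequent in RpL promoters, while the GAGA element and the TATA box are not.

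Matches were present at RpL genes with and without an IDR summit. The TCT core was at 17 of 41 RpL genes with an IDR summit and at 6 of 13 without. The DRE was at 12 of 41 and 3 of 13, the motif 1 core at 7 of 41 and 2 of 13, and the E-box at 7 of 41 and 4 of 13. Within 50 bp of the IDR summit, wherever the TSS lay, 20 of the 41 (48.8%) held TCTTT on the sense strand, against 15.9% of all 1964 genes with a summit. The DRE was in 10 of these windows (24.4%), against 3.05%, and the motif 1 core in 6 (14.6%), against 1.58%. The windows are not alike in place, since the median summit was at -29 bp in RpL genes and -143 bp in all genes. Those of RpL genes therefore reach the TSS more often, and the part of this in these shares was not tested. The DRE lies upstream of the TSS at a median of -57 bases and the motif 1 core at -19. Matches to the TCT core started at a median of 3 bases, so many do not start at the TSS itself. Among protein-coding genes that are neither RpL nor RpS genes, a comparison chosen after the values were seen, 44 of 289 (15.2%) with the TCT core had an IDR summit, with a median position of -136.5 bp. The share was 16.1% for those with the DRE, 18.0% with the motif 1 core and 17.2% with the E-box. For the remaining sequences it was 15.5% with GAGAG, 17.2% with TATTTAC and 13.3% with TATAAA. All but the share with TATAAA were somewhat above the 14.1% of all protein-coding genes, a figure that includes RpL and RpS genes. The differences were not tested, and they were not limited to sequences known at ribosomal protein promoters.

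Related gene lists are given for scale. An IDR summit was at 41 of 54 RpL genes and at 25 of 38 small-subunit genes whose symbol begins with RpS (65.8%, Wilson interval 49.9 to 78.8), and the intervals of those shares overlap. RpS summits had a median position of -25 bp and a median rank of 1369. Genes of the large subunit of the mitochondrial ribosome, whose symbol begins with mRpL, had one in 5 of 47 cases (10.6%, 4.63 to 22.6), with a median position of -139 bp. Among 12 genes of nucleolar and large-subunit assembly factors, 5 had one (41.7%, 19.3 to 68.0). They were eIF6 (score 1101), Ns2 (747), NHP2 (368), Fib (172) and Nopp140 (165). Of 6 factors known at ribosomal protein promoters, 3 had one (18.8 to 81.2), namely Dref (577), M1BP (364) and Max (240). Trf2, Myc and Taf1 had none. The Dref summit is the one shared with RpL13, 6 bp upstream of RpL13 and nearest to that gene. It is therefore counted in both lists and cannot be credited to Dref alone.

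**Figure D5:**
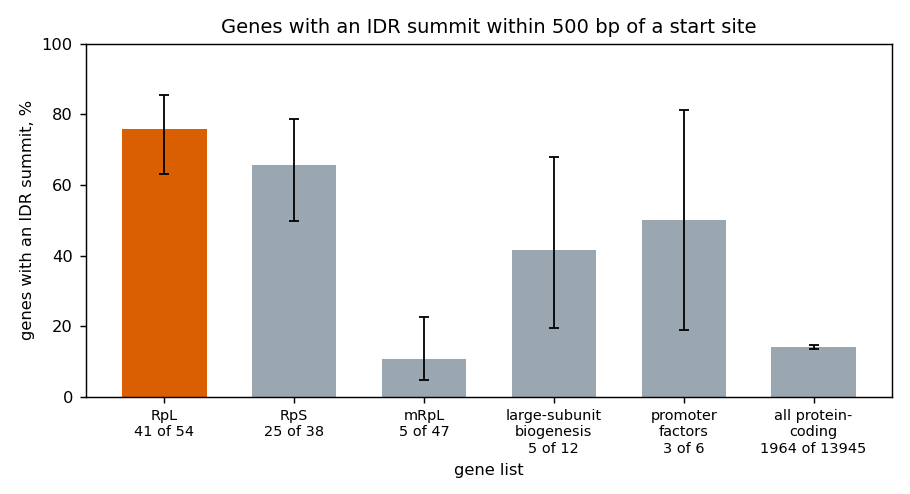
Share of genes with an IDR summit within 500 bp of a TSS (vertical axis, %) in each gene list, with 95% Wilson intervals as error bars and the counts under each bar. RpL genes are highest at 75.9% and RpS genes follow at 65.8%, with overlapping intervals, against 14.1% of all protein-coding genes.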

How the data were processed

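Per the file headers, the authors derived candidate lists from alignments to dm6 and 1 control file, for each replicate and for both pooled, and the IDR list from those. The aligner and peak caller, like the IDR threshold, are not stated in the files or labels. The deposited score of each interval was used within its list only, and summits are the interval start plus the deposited offset, converted to positions counted from 1. Chromatin was sheared to 200 to 800 bp, per the labels. TSSs came from Ensembl release 115, sequence from RefSeq's copy of the same assembly. Each gene took its highest-scoring summit within 500 bp of any of its TSSs. There is 1 group, so no groups were compared and no p-value is given. Shares carry 95% Wilson intervals. A single member is counted in the totals but is not reported here by itself. Full values were given for the other genes among the 12 highest members, the stalk, the paralogs, members without an IDR summit, the last 10% of the IDR list and the 3 largest rank ratios between replicates. Members, lists and sequences were chosen with earlier results of these data known. The distance code was checked on simulated summits. Python 3.11.15, NumPy 2.4.6, SciPy 1.17.1 and Matplotlib 3.10.9 were used.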

Additional observations from a re-analysis of the deposited data

How the results depend on the processing

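The count of 41 RpL genes with an IDR summit was the same with TSS windows of 250 bp (10.9% of all genes) and 1000 bp (16.8%), at the canonical TSS alone (11.9%) and when the interval had to overlap the TSS (8.15%). It was 40 when a summit counted for the nearest TSS alone, against 10.6% of all genes, and 34 in a stricter list, the higher-scoring part of the IDR list, against 8.05% of all genes. The highest candidates of 1 replicate alone, as many as the IDR list holds, gave 40 to 43 genes, against 14.1% of all genes. These are the single-replicate counts given above, and no IDR or pooled list was rebuilt. Each included 40 of the original 41. The median summit position ran from -39 bp at the canonical TSS to -17.5 bp in replicate 2 alone, and was -37 bp in replicate 1 alone. The count in both replicates was 29 with as many candidates of each as that shorter list holds, against 6.37% of all genes. The median rank of the highest candidate was 1175 in the pooled list, 1032 in replicate 1's own list and 1394 in replicate 2's own list. The share of divergent RpL genes moved to 40.7% with the other gene within 500 bp, against 27.4% of all genes. Within 50 bp of the IDR summit, a shorter window than the promoter, GAGAG was at 2.44% of members (9.01% of all genes with a summit), TATAAA at 7.32% (16.4%), CACGTG at 7.32% (1.27%) and TATTTAC at 4.88% (6.82%). The windows of members lie nearer to a TSS than those of all genes. Depth is unknown, so a missing candidate does not show that the protein is absent there.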
